A study of Mus musculus with 60 samples.

Results

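The amyloid precursor protein gene App and its mouse paralogs Aplp1 and Aplp2 were followed through a count table of the hippocampus. They are the 3 members of 1 gene family among 35976 gene symbols, taken by gene symbol with no cut on a measured value. RNA was sequenced from bulk hippocampus of wild-type mice (WT) and of App knock-in mice (NLGF) at 3, 8 and 24 weeks of age. Each age and genotype has 5 libraries labelled female and 5 labelled male, which gives 60 libraries in 6 sets of 10. The NLGF allele places the Swedish, Arctic and Iberian mutations of familial Alzheimer's disease, with a humanised amyloid beta sequence, into the mouse App gene itself. The mutant protein is therefore made from App's own promoter and in App's own cells, and no transgene adds copies. The labels give no treatment and no other allele, and they do not say whether 1 or both copies of App were altered. The design text treats animals of both sexes as replicates, but no label ties a library to an animal. The p-values therefore rest on the spread among these libraries, part of which may be technical.

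App, Aplp1 and Aplp2 encode type I membrane proteins with a large ectodomain, a single transmembrane segment and a short cytoplasmic tail. An alpha- or beta-secretase sheds the ectodomain, and gamma-secretase then cuts the remaining stub within the membrane. When beta-secretase makes the first cut in App, the second releases amyloid beta, which neither paralog can yield because neither carries that stretch. App and Aplp2 are expressed in most tissues, whereas Aplp1 is largely a gene of the nervous system. The 3 proteins act partly in each other's place in cell adhesion and at synapses, and their tails bind the same adaptor proteins.

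In mm10 (GENCODE vM21), all 3 genes lie on the minus strand: App (ENSMUSG00000022892.11) at chr16:84949685-85173766, Aplp1 (ENSMUSG00000006651.8) at chr7:30434982-30445535, and Aplp2 (ENSMUSG00000031996.17) at chr9:31149557-31211815. The principal transcript of App has 16 exons and 2085 coding bases. It is the neuronal form without the Kunitz inhibitor exon. That of Aplp1 has 17 exons with 1962 coding bases and that of Aplp2 has 17 with 2253. Aligned over their coding sequences, App and Aplp2 were identical at 67.4% of aligned bases, App and Aplp1 at 61.9%, and Aplp1 and Aplp2 at 62.1%. The exons shown are those that hold amyloid beta and the last one, which holds part of the cytoplasmic tail. The 42 codons of amyloid beta are in capitals in coding exons 14 (chr16:84965670-84965770) and 15 (chr16:84962722-84962868), and the 4 codons of the NPTY sorting motif, which binds the tail's adaptors, are in capitals in the last coding exon, 16 (chr16:84955334-84955432). All are the reference sequence, read on the minus strand from 5′ to 3′, and not that of the knock-in allele.
App exon 14: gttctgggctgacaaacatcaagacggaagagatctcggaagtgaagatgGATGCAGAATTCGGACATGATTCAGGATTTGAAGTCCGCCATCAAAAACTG
App exon 15: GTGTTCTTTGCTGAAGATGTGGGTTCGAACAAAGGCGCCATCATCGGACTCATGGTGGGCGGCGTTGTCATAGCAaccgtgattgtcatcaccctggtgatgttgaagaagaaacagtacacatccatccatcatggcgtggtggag
App exon 16: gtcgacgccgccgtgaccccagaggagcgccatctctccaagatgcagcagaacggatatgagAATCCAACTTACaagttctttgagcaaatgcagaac

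The last coding exons of the paralogs are printed to show how much of the cytoplasmic tail is shared. Capitals here mark bases identical to App in the alignment. Aplp2 exon 17 lies at chr9:31150874-31150972 and Aplp1 exon 17 at chr7:30435296-30435391, both on the minus strand.
Aplp2 exon 17: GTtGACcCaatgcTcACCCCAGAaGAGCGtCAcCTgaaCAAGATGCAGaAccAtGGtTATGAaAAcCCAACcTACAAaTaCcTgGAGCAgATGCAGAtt
Aplp1 exon 17: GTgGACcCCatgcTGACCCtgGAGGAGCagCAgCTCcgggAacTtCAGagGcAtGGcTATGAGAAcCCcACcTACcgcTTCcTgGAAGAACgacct
Of App's last exon, 70.7% of bases were identical in Aplp2 and 60.6% in Aplp1. For exon 14, where amyloid beta begins, the shares were 59.4% and 44.6%. For exon 15 they were 63.9% and 49.7%. These exons are not the extremes: exon 13 was less alike (46.3% and 38.9%) and exon 8 more alike (76% and 68%). How the counting treated reads that match more than 1 gene is not given in the sources used here.

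The libraries held from 17.8 to 73.4 M counts each. Of the 10 NLGF libraries of week 3, 7 held 54 M or more (called the deeper libraries below), whereas the other 53 libraries of the series held at most 35.2 M. No WT library is of the deeper kind, so for the 3 genes the genotype difference at week 3, and its difference from the other weeks, is also given without these 7. The sex label matched Xist and Ddx3y in 59 of 60 libraries, the exception being the library labelled NLGF W3 male 2, with 246.5 CPM of Xist and 0 CPM of Ddx3y. Of all pairs of libraries, it and NLGF W3 female 1 were the most alike (r = 0.99736 on log2 CPM). Their summed choroid plexus genes stood at 10050 and 10410 CPM, and their oligodendrocyte genes at 11350 and 11360 CPM. Both are of the deeper kind and were counted as separate libraries. Whether they come from 1 sample was not tested. For the library NLGF W8 female 1 the title (week 8) and the age given (3 weeks) conflict. Its summed level of 8 oligodendrocyte genes, 3649 CPM, was within the range of the week 8 sets (3294 to 14680 CPM) and below every library of week 3 (5805 CPM and more), and it was kept with week 8. Marker genes of neurons, of hippocampal fields and of every glial list were detected in all 6 sets, with none of the listed genes at 0 in any set.

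All 3 genes were abundant. Over the 60 libraries App averaged 1706 CPM (each count per 1 M of the TMM-scaled library total) and ranked 35th of 31571 genes with a count. Aplp1 averaged 1263 CPM at rank 67, and Aplp2 486.1 CPM at rank 287. Together the 3 genes took 0.345% ± 0.0258 of all counts (SD, n = 60). CPM does not allow for gene length, and how Aplp1 stood to App depended on the length used. Per kb of all annotated exons, Aplp1 stood at 419 ± 49 CPM, App at 131 ± 12.1 CPM and Aplp2 at 82.7 ± 6.83 CPM (SD, n = 60). App's exons add up to 12996 bases in the annotation, against 3017 for Aplp1 and 5875 for Aplp2. Per kb of the principal transcript (3176, 2343 and 3634 bases), App and Aplp1 were level at 537 ± 49.5 and 539 ± 63.2 CPM, and Aplp2 stood at 134 ± 11.1 CPM. Aplp2 was the lowest of the 3 on either scale. Aplp1 was above App per kb of all exons and level with it per kb of the principal transcript. With the longest transcript the log2 ratio of Aplp1 to App per kb was 1.29.

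**Figure D1:**
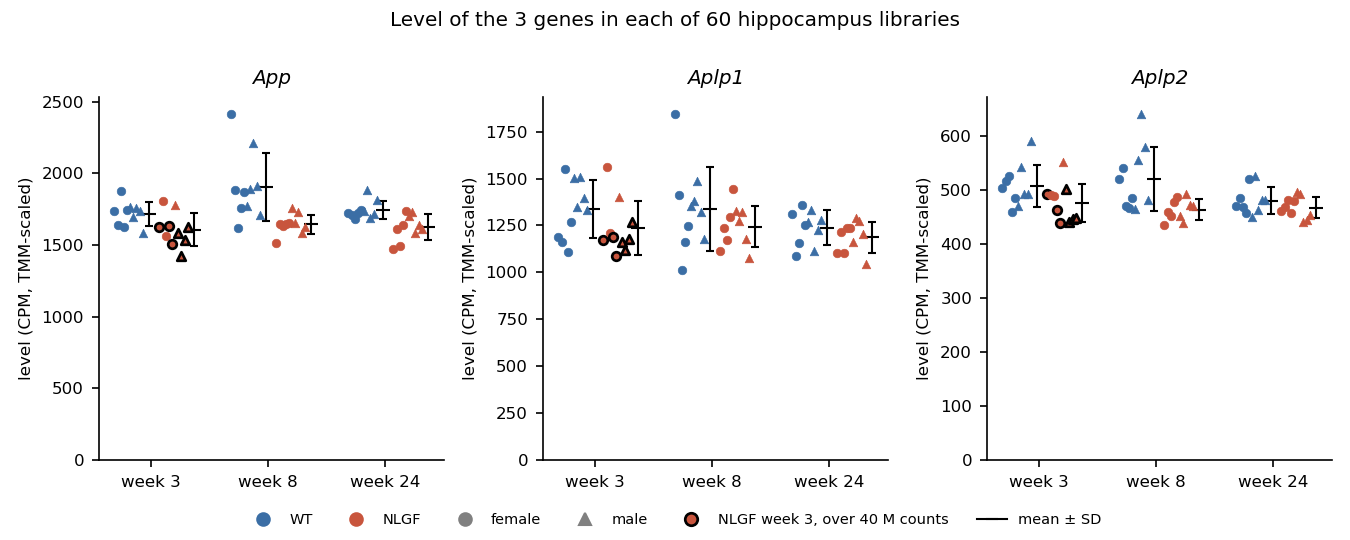
Level of App, Aplp1 and Aplp2 in each of the 60 libraries, in CPM of the TMM-scaled library total, by week and genotype (blue WT, red NLGF, circles female, triangles male). Black outlines mark the 7 deeper NLGF libraries of week 3, and bars give the mean ± SD of the 10 libraries of a set. The widest set is WT at week 8, where App runs from 1620 to 2413 CPM, and every NLGF library of that week lies below the WT median of 1877.5 CPM.

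The first question was whether the gene that carries the mutations was itself expressed at a changed level in NLGF. At week 8 the App level in WT was 1620, 1760, 1872, 1883 and 2413 CPM in the females and 1712, 1770, 1889, 1909 and 2211 CPM in the males. In NLGF it was 1514, 1631, 1647, 1648 and 1655 CPM in the females, and in the males it ran from 1584 through a median of 1654 to 1756 CPM. All 10 NLGF libraries lay below the WT median, and 8 of 10 WT libraries lay above every NLGF library. The set means were 1904 ± 238 CPM in WT and 1644 ± 67.4 CPM in NLGF (SD, n = 10 each), with the WT set the more widely spread. On the log2 scale NLGF differed from WT by -0.21 ± 0.0619 (SE), which is -13.7%, with an adjusted p of 0.633. The difference did not pass the threshold, an adjusted p under 0.05 over all genes tested, which is what "called" means below. At week 8 edgeR called 0 of 16494 genes (0% called), and 1292 genes, App and Aplp2 among them, had an unadjusted p under 0.05. DESeq2 called 1 gene, which was no family member, and limma-voom called 0. Without the library labelled WT W8 female 1, the highest of all in App, the log2 fold change was -0.17 ± 0.0516. In whole tissue, fewer cells of a type and less RNA per cell cannot be told apart.

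The authors' deposited table lists App at week 8. It gives a log2 fold change of -0.14 with a standard error of 0.0409 and an adjusted p of 0.0308, and App is there 1 of 4 genes, all of them lower in NLGF. The other 3 are Cpsf7, Fam193a and Tnfaip1, named because the table holds no more at that week. The authors' adjusted p is 0.0308 for Cpsf7 too, but 0.0516 for Fam193a and Tnfaip1, which is above the threshold used here. Their listed values reach 0.06 at week 3 and 0.0583 at week 24. The authors' deposited table lists 2628 genes at week 3 and 156 at week 24, and none of the 3 family members is among them. Aplp1 and Aplp2 are in it at no week. The table's model was not given in the sources used here, and its fold change for App is smaller than the one above.

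At week 24 App was at 1679.5 to 1887 CPM with a median of 1724 CPM in WT, and at 1474 to 1738 CPM with a median of 1628 CPM in NLGF. The lower end separated more than the upper: 7 of 10 NLGF libraries were below every WT library, while 3 lay inside the WT range. App differed by -0.10 ± 0.0383 on the log2 scale (adjusted p = 0.375), and edgeR called 145 of 16508 genes (0.878%) at this age.

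At week 3 App was at 1583 to 1879 CPM with a median of 1736.5 CPM in WT, and at 1426 to 1805 CPM with a median of 1604 CPM in NLGF. Here the genotypes overlapped, with 4 NLGF libraries below every WT library. App differed by -0.091 ± 0.0498 on the log2 scale (adjusted p = 0.286), in a comparison where edgeR called 628 of 16605 genes (3.78%). App stood at 1562 ± 77.4 CPM in the 7 deeper libraries and at 1716 ± 134.5 CPM in the 3 others, the WT mean being 1716.5 ± 85.1 CPM. With the deeper libraries alone against WT, App fell by 0.14 ± 0.0488 on the log2 scale (adjusted p = 0.0463, 21.5% of genes called). Without them the log2 fold change was 0.0005 ± 0.0767 (adjusted p = 0.999), with 0% of 17187 genes called by edgeR and 1965 at an unadjusted p under 0.05. Depth and genotype cannot be told apart at this age beyond these 3 libraries. The 3 also differed from the 7 in the GC index described below (mean 0.32 against -0.069, with 0.135 in WT).

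Aplp2 followed App in direction at each week and was called at none. At week 8 it ran from 465 through a median of 503 to 641 CPM in WT and from 435 through 465 to 492 CPM in NLGF. All 10 NLGF libraries were below the WT median and 5 of 10 were below every WT library. The log2 fold change of Aplp2 at week 8 was -0.17 ± 0.0571 (adjusted p = 0.633). At week 24 the WT range was 450 to 527 CPM with a median of 476, and the NLGF range 440 to 496 CPM with a median of 465, almost wholly overlapping (log2 fold change -0.039 ± 0.0371, adjusted p = 0.788). At week 3 Aplp2 was at 459 to 592 CPM (median 498) in WT and at 438 to 552 CPM (median 476) in NLGF. There Aplp2 differed by -0.092 ± 0.0534 (adjusted p = 0.322), and 0.019 ± 0.08 without the deeper libraries.

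Aplp1, the neuronal paralog, was called by edgeR at none of the 3 weeks when all libraries were fitted. At week 8 it spanned 1014 to 1843.5 CPM in WT (median 1336) and 1079 to 1445 CPM in NLGF (median 1257), so the NLGF range lay inside that of WT. For Aplp1 the log2 fold change was -0.11 ± 0.0822 (adjusted p = 0.715) and -0.045 ± 0.0701 without the library labelled WT W8 female 1. At week 24 Aplp1 was at 1085.5 to 1360 CPM in WT (median 1260.5) and at 1043 to 1288 CPM in NLGF (median 1208), a log2 fold change of -0.062 ± 0.0511 (adjusted p = 0.754). At week 3 it was at 1111 to 1553 CPM in WT (median 1341) and 1088 to 1559 CPM in NLGF (median 1184). Its log2 fold change of -0.11 ± 0.0713 (adjusted p = 0.381) became 0.083 ± 0.102 without the deeper libraries, which is the opposite direction. With the deeper libraries alone against WT, Aplp1 fell by 0.21 ± 0.064 on the log2 scale (adjusted p = 0.0264).

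Because App was lower in NLGF at each week, the weeks were also fitted together, a comparison chosen after the weekly values had been seen. Over the 3 weeks App fell by 0.14 ± 0.0278 on the log2 scale (adjusted p = 0.00185) and Aplp2 fell by 0.10 ± 0.0276 (adjusted p = 0.0144). Aplp1 stood at -0.093 ± 0.0412 (adjusted p = 0.127) and was called by limma-voom (-0.088 ± 0.0327, adjusted p = 0.045). In this comparison 2125 of 17752 genes were called (12%), so 2 called members of 3 stand beside a broad background. Without the 7 deeper libraries 36 of 18779 genes were called (0.192%). App was then at -0.11 ± 0.0342 (adjusted p = 0.159), Aplp2 at -0.063 ± 0.0328 (adjusted p = 0.388) and Aplp1 at -0.029 ± 0.0488 (adjusted p = 0.836), and none was called. Weeks 8 and 24 alone hold no deeper library. Over these App fell by 0.16 ± 0.0363 on the log2 scale (adjusted p = 0.0286) and was 1 of 7 genes called lower, beside 61 called higher, of 17348 tested (0.392% called). Aplp2 was at -0.10 ± 0.0334 (adjusted p = 0.174) and Aplp1 at -0.086 ± 0.05 (adjusted p = 0.413). In weeks 8 and 24 App was called with 33 of 40 libraries left out in turn. The adjusted p rose to 0.0642 without NLGF W24 female 1, 0.057 without NLGF W24 male 5, 0.0544 without WT W24 male 2, 0.0534 without NLGF W8 male 2, 0.0512 without WT W8 female 2, 0.0505 without WT W8 male 3 and 0.0502 without NLGF W8 male 4. The log2 fold change lay between -0.18 and -0.14 throughout. With no filter on low counts its adjusted p was 0.104, and over the 3 weeks together that of Aplp2 was then 0.0635.

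**Figure D2:**
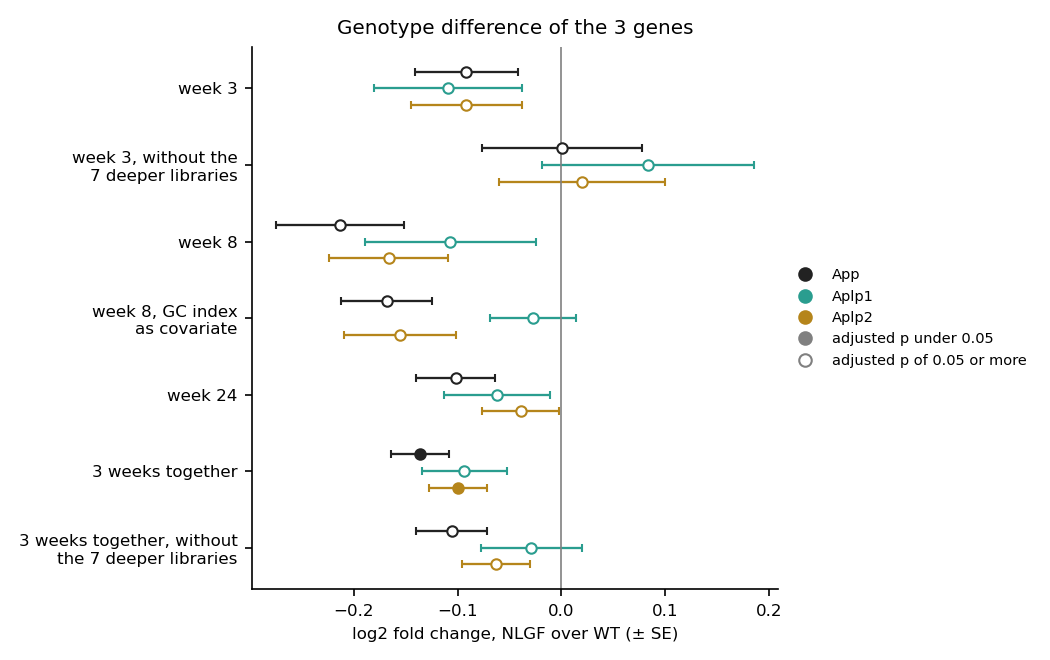
Log2 fold change of NLGF over WT for App (black), Aplp1 (green) and Aplp2 (ochre) with its standard error, at each week and for the 3 weeks together. Filled points have an adjusted p under 0.05. App is lowest at week 8 (-0.21), all 3 points are at 0 or above at week 3 without the 7 deeper libraries, and with a GC covariate at week 8 Aplp1 moves to -0.027 while App is at -0.17.

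Whether the genotype difference itself varied with age was tested in 1 fit of all libraries. For App the difference of the genotype effect was -0.12 ± 0.0681 between weeks 8 and 3 (adjusted p = 0.781), 0.11 ± 0.0681 between weeks 24 and 8 (adjusted p = 1) and -0.0079 ± 0.0681 between weeks 24 and 3 (adjusted p = 0.977). For Aplp2 the values were -0.071 ± 0.0676, 0.13 ± 0.0676 and 0.055 ± 0.0676, and for Aplp1 they were 0.0061 ± 0.101, 0.044 ± 0.101 and 0.05 ± 0.101. No member was called in these comparisons, in which 0.18%, 0.31% and 1.15% of 17752 genes were. Without the deeper libraries the difference between weeks 8 and 3 was -0.22 ± 0.0886 for App (adjusted p = 0.358), -0.19 ± 0.0851 for Aplp2 (adjusted p = 0.399) and -0.20 ± 0.127 for Aplp1 (adjusted p = 0.549), and that between weeks 24 and 3 was -0.11 ± 0.0889, -0.061 ± 0.0854 and -0.15 ± 0.127. None of these was called.

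Ratios between family members within a library need no scaling between libraries. The log2 ratio of Aplp1 to App counts averaged -0.44 ± 0.11 over 60 libraries (SD), that of Aplp2 to App -1.81 ± 0.107 and that of Aplp1 to Aplp2 1.37 ± 0.146. At week 8 Aplp1 over App ran from -0.68 through -0.54 to -0.39 in WT and from -0.59 through -0.41 to -0.20 in NLGF, with 9 of 10 NLGF libraries above the WT median. The set means differed by 0.11, about the SD of either set (0.0992 and 0.0995). At week 24 Aplp2 over App averaged -1.86 ± 0.059 in WT and -1.79 ± 0.0813 in NLGF, and 2 NLGF libraries were above every WT library. At week 3 the means of Aplp2 over App were -1.76 ± 0.145 in WT and -1.76 ± 0.0798 in NLGF, and -1.75 in the 3 NLGF libraries not of the deeper kind. In none of the 3 ratios did the genotypes separate at any age. The lowest Aplp2 to App ratio of the series, -2.21, was in WT W8 female 1, the library with the highest App and Aplp1 levels.

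**Figure D3:**
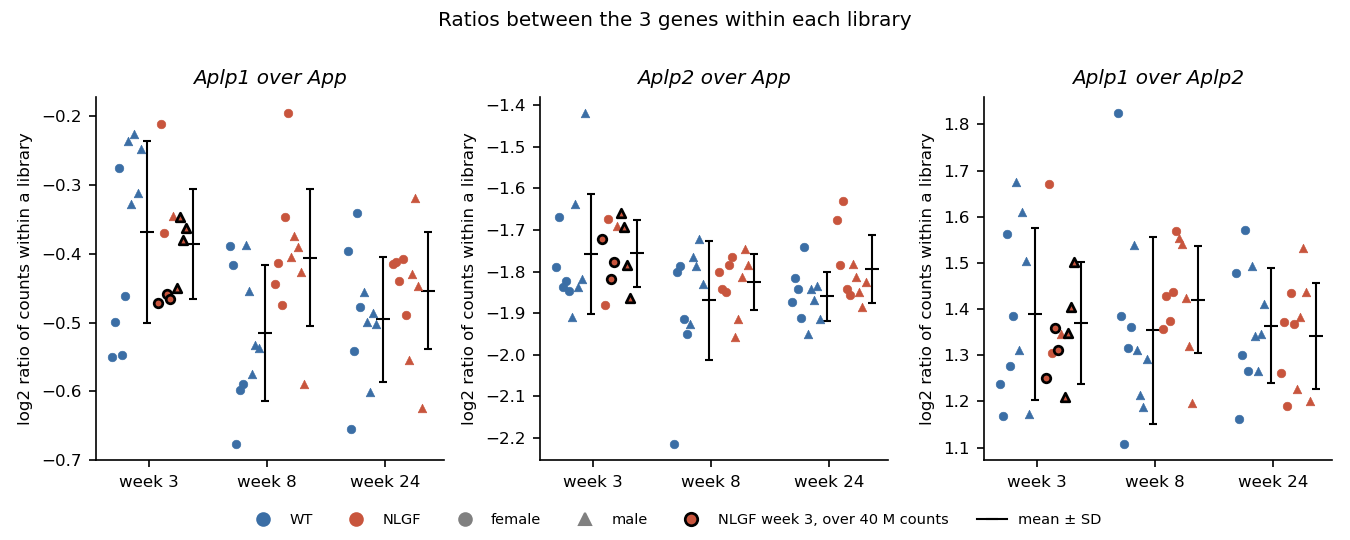
Log2 ratio of counts between family members within each library, by week and genotype (symbols as in the plot of levels, bars mean ± SD of 10 libraries). The genotypes overlap in every panel, and the widest gap between set means is that of Aplp1 over App at week 8, -0.52 in WT and -0.41 in NLGF.

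Changes with age were followed in WT, which holds no library of the deeper kind. App averaged 1716.5 ± 85.1 CPM at week 3, 1904 ± 238 CPM at week 8 and 1742 ± 62.6 CPM at week 24 (SD, n = 10 each). Its log2 fold change was 0.15 ± 0.0562 from week 3 to 8 (adjusted p = 0.114), -0.13 ± 0.0562 from week 8 to 24 (adjusted p = 0.384) and 0.022 ± 0.0562 from week 3 to 24 (adjusted p = 0.824). Of 16844 genes, 7.14%, 0.279% and 21.9% were called in these comparisons, and none of the 3 family members was. Without WT W8 female 1 the App value from week 3 to 8 was 0.10 ± 0.0481 (adjusted p = 0.172). With the GC index described below as a covariate it was 0.16 ± 0.0448 and was called (adjusted p = 0.0176, 11.5% of genes called). Aplp1 averaged 1337 ± 155, 1339 ± 225 and 1238.5 ± 93.6 CPM at the 3 ages, and Aplp2 508 ± 38.8, 520.5 ± 58.6 and 480.5 ± 25.4 CPM. From week 3 to 24 Aplp1 was at -0.11 ± 0.078 (adjusted p = 0.348) and Aplp2 at -0.08 ± 0.0575 (adjusted p = 0.346), and neither was called between any ages. Without WT W8 female 1 the Aplp1 value from week 3 to 8 was -0.065 ± 0.0661, against 0.0036 ± 0.0779 with it.

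In NLGF App averaged 1608 ± 116.5, 1644 ± 67.4 and 1623 ± 90.4 CPM at weeks 3, 8 and 24, with log2 fold changes of 0.028 ± 0.0434 from week 3 to 8, -0.016 ± 0.0434 from 8 to 24 and 0.011 ± 0.0434 from 3 to 24. Aplp1 averaged 1235 ± 143, 1244 ± 111 and 1186 ± 81.1 CPM, and Aplp2 476 ± 35.9, 464 ± 19.5 and 468 ± 19.6 CPM. No member was called, while 10.4%, 1.9% and 25.7% of 17391 genes were. Without the deeper week 3 libraries, which leaves 3 at week 3, Aplp1 fell by 0.23 ± 0.0844 from week 3 to 24 on the log2 scale (adjusted p = 0.0409). With them it was at -0.059 ± 0.0608. The 3 averaged 0.32 in the GC index described below, against -0.156 in NLGF at week 24. With all libraries and that index as a covariate Aplp1 was at 0.069, the opposite direction. Over the alternatives of this comparison 3986 to 5167 genes were called. Whether these changes differ from those in WT is the test of the genotype effect between weeks given above.

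No family member was called between the sexes. Male over female, the log2 fold change was 0.015 ± 0.027 for App, 0.029 ± 0.0399 for Aplp1 and 0.032 ± 0.0272 for Aplp2 (adjusted p = 0.985 for each). Over all genes 16 of 16750 were called (0.0955%). The difference between males and females in the genotype effect (male minus female) was, for Aplp1 at week 3, -0.19 ± 0.144 (adjusted p = 0.613), and for Aplp2 at week 8 -0.15 ± 0.118 (adjusted p = 0.857). For App it was -0.0086 ± 0.104, 0.029 ± 0.131 and 0.0096 ± 0.079 at weeks 3, 8 and 24. edgeR called 0% of genes in each of these 3 comparisons, with 2012, 1046 and 534 genes at an unadjusted p under 0.05. DESeq2 called 81, 0 and 0 genes there and limma-voom 21, 0 and 0, none of them a family member.

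Libraries of 1 group differed from each other in a way that App and Aplp1 shared. The deviation of each library from the mean of its genotype, week and sex group was taken for the 50 libraries outside the NLGF week 3 set. Between App and Aplp1 these deviations correlated with r = 0.824 (rho = 0.761, permutation p = 1e-05 for both, adjusted p = 3e-05 over the 3 pairs, r = 0.708 without the 2 libraries farthest out in App). That p is the smallest that the permutations can give. App and Aplp2 were less alike (r = 0.463, rho = 0.424, permutation adjusted p = 0.00688, r = 0.479 without the 2 farthest). Aplp1 and Aplp2 were the least alike (r = 0.319, rho = 0.30, adjusted p = 0.03 for r and 0.0557 for rho, by permutation). All points share a library's scaling, so part of any such correlation can come from the total.

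The same libraries differed in base composition. GC content was taken from the longest annotated transcript of each gene. A GC index was computed per library as the mean log2 CPM of genes at 55.6% or more, minus that of genes at 44% or less. Over the same 50 libraries its deviations correlated with those of Aplp1 at r = 0.869 (rho = 0.847, r = 0.785 without the 2 farthest) and with those of App at r = 0.705 (rho = 0.634, r = 0.483 without the 2 farthest). The permutation adjusted p was 0.000195 for both genes over 39 relations. With Aplp2 the r was 0.121 (permutation adjusted p = 0.69). Aplp1 is itself rich in GC (59.4%, above 93.9% of genes with a value), but App is not (46.1%, above 30.4%) and neither is Aplp2 (48.4%). The index was highest by far in WT W8 female 1, at 0.89, against a median of 0.034 in its set and a range of -0.24 to 0.16 in NLGF at week 8. The other 9 WT libraries of week 8 ran from -0.35 to 0.22. At week 3 the index averaged 0.135 in WT, -0.069 in the 7 deeper NLGF libraries and 0.32 in the 3 others. Values given without the deeper libraries therefore differ in base composition as well as depth. The part of each in them was not tested. With the index as a covariate the App difference of week 8 was -0.17 ± 0.0437 (adjusted p = 0.399), that of Aplp2 -0.16 ± 0.0539 and that of Aplp1 -0.027 ± 0.0412. Over the 3 weeks together, the 7 deeper libraries included, App fell by 0.11 ± 0.0201 with the covariate (adjusted p = 0.000728). Aplp2 fell by 0.09 ± 0.0265 (adjusted p = 0.0204), while Aplp1 was at -0.037 ± 0.0223 (adjusted p = 0.297). This comparison called 12% of all genes without the covariate, and 36 to 3907 genes over its alternatives. Without the 7 deeper libraries, and without the covariate, neither App nor Aplp2 was called in it.

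**Figure D4:**
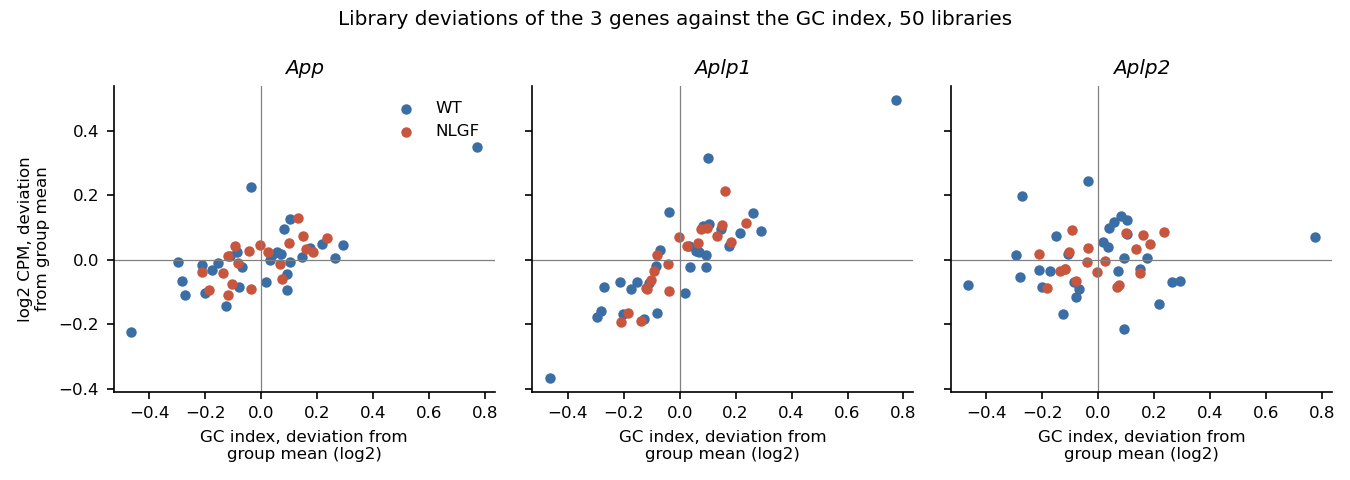
Deviation of log2 CPM of App, Aplp1 and Aplp2 from the mean of the library's group against the deviation of its GC index, for the 50 libraries outside the NLGF week 3 set (blue WT, red NLGF). Points rise together for Aplp1 (r = 0.869) and App (r = 0.705) and not for Aplp2 (r = 0.121). The point at the far right is WT W8 female 1.

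The genes most alike to each member were sought over the same deviations among 9490 genes of at least 10 CPM. For App these were Atp9a, a phospholipid flippase of endosomes (r = 0.894), the splicing factor Puf60 (0.886), the deubiquitinase Usp5 (0.878), the chaperone Fkbp8 (0.874) and Apbb1 (0.873), which encodes Fe65, an adaptor of App's own tail. Aplp1 came at place 35 and Aplp2 at place 1925. For Aplp1 they were Pik3r2, Sema6b, Cenpb, Aatk and Tbc1d10b (r from 0.93 down to 0.916), with App at place 156. For Aplp2 they were Vcp (r = 0.842), Arf2, St13, Samm50 and Vapb (0.814), with App at place 988. The 5 genes nearest to App and the 5 nearest to Aplp1 are all above at least 80.8% of genes in GC content. Those nearest to Aplp2 lie between the 6.61st and the 64th percentile. How much of the likeness is base composition was not tested.

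Cell type markers were read over the same deviations. Aplp1 correlated with the summed level of 4 excitatory neuron genes at r = 0.672 (rho = 0.51, permutation adjusted p = 0.00039, r = 0.549 without the 2 farthest). With 6 general neuron genes the r of Aplp1 was -0.031 and with 5 interneuron genes -0.25 (permutation adjusted p = 0.891 and 0.295). With the GC index the r of Aplp1 was higher, at 0.869. WT W8 female 1 was highest both in that index and in the 4 excitatory neuron genes (9741 CPM). How far these relations overlap was not tested, nor was the part of excitatory neurons in the genotype values.

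Partners of the family were read from 4 lists of 51 genes, all of which were measured: adaptors of the cytoplasmic tail, sorting and trafficking proteins, partners of the ectodomain or membrane, and secretases. At week 8 and at week 24 edgeR called none of the 51 between genotypes (2 at an unadjusted p under 0.05 at each), and DESeq2 and limma-voom called none either. Of all genes edgeR called 0% and 0.878% at these weeks, with 7.83% and 8.99% at an unadjusted p under 0.05. At week 3 edgeR called 2 higher and 0 lower (3.92%, near the 3.78% of all genes). DESeq2 called 4 and limma-voom 10 there, and the shares of all genes that these 2 tools called are not given here. Over the alternatives, 0 to 3671 of all genes were called at week 3. Apbb2, which encodes the adaptor Fe65L1, rose by 0.22 ± 0.057 on the log2 scale (adjusted p = 0.0357) and was at 0.20 ± 0.0925 without the deeper libraries (adjusted p = 0.431). Rtn3, a reticulon that binds beta-secretase, rose by 0.24 ± 0.0623 (adjusted p = 0.0371) and was at 0.072 ± 0.084 without them (adjusted p = 0.762). Over the 3 weeks together 5 of 51 were called by edgeR (9.8%, against 12% of all genes). DESeq2 called 7 and limma-voom 10, again without these tools' own shares beside them. Over the alternatives, 36 to 3907 of all genes were called in that comparison. Those of edgeR were Apbb2 and Rtn3, both higher, and 3 that were lower: Apbb1 (-0.15 ± 0.049, adjusted p = 0.0344), Klc1, a kinesin light chain that links App to transport (-0.14 ± 0.0472, adjusted p = 0.0396), and Aph1a, a gamma-secretase subunit (-0.17 ± 0.0531, adjusted p = 0.0291). None of the 5 was called without the deeper libraries. With single libraries left out, Apbb2 and Rtn3 were called at week 3 in 9 and 8 of 20 fits, and over the 3 weeks Apbb1 in 49, Klc1 in 34 and Aph1a in 59 of 60.

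With age in WT, partners were called at about the rate of all genes. From week 3 to 8 the called partners were Dab1 (0.18 ± 0.0503, adjusted p = 0.0256), a tail adaptor of reelin signalling, and Prnp (0.25 ± 0.0585, adjusted p = 0.00654), the prion protein gene, which rose, and the sheddases Adam17 (-0.58 ± 0.0913, adjusted p = 5.55e-05) and Adam9 (-0.29 ± 0.0551, adjusted p = 0.000578), which fell. These are 4 of 51 (7.84%, against 7.14% of all genes). Dab1 was called in 23 of 30 fits that left out a library, and the other 3 in all 30. From week 8 to 24 edgeR, DESeq2 and limma-voom called none of the 51 (7 at an unadjusted p under 0.05 in edgeR). Of all genes edgeR called 0.279% over that interval, with 11.5% at an unadjusted p under 0.05. From week 3 to 24, 13 of 51 were called (25.5%, against 21.9% of all genes), and 9 of these are secretase genes, 7 lower and 2 higher of 12. The median log2 fold change of the secretase list was -0.21, beside 0.0078 over all genes tested. Cell type markers moved over the same interval: 8 of 8 oligodendrocyte genes were called lower (median -1.58, their sum going from 6672 to 16770 CPM at week 3 to 2714 to 4791 CPM at week 24), as were 3 of 4 oligodendrocyte precursor genes and 5 of 5 blood genes (median -1.40). Their part in the secretase values was not tested. The secretase genes of smallest p were Adam17 (-0.76 ± 0.0915, adjusted p = 2.18e-07), Adam9 (-0.32 ± 0.055, adjusted p = 6.16e-05), the beta-secretase Bace1 (-0.51 ± 0.0955, adjusted p = 0.000178) and its paralog Bace2 (-0.91 ± 0.256, adjusted p = 0.0102), which fell. The gamma-secretase subunits Aph1b (0.21 ± 0.0787, adjusted p = 0.049) and Aph1c (0.35 ± 0.128, adjusted p = 0.047) rose. These 6 were chosen after their values were seen. In NLGF from week 3 to 24, 15 of 51 were called (29.4%, against 25.7% of all genes), Bace1 among them at -0.51 ± 0.0914 (adjusted p = 0.000105), also chosen after its value was seen.

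Genes beside the family members were examined because the NLGF allele was built at the App locus. On chromosome 16 the nearest protein-coding genes are Gabpa, a transcription factor gene 85.9 kb away, and Cyyr1, 247.8 kb away on the other side, with Atp5j and Jam2 also within 200 kb. edgeR and DESeq2 called none of these 4 between genotypes at any week or over weeks together (2 at an unadjusted p under 0.05 at week 3, 0 elsewhere). Of all genes edgeR called 3.78%, 0% and 0.878% at weeks 3, 8 and 24, with 22% at an unadjusted p under 0.05 at week 3. Over the 3 weeks it called 12%, and over weeks 8 and 24 0.392%. limma-voom called 1 of the 4, at week 3, and its share of all genes is not given here. At week 8, where App was at -0.21, Gabpa was at 0.048 ± 0.0939 and Cyyr1 at 0.091 ± 0.123. Of 5 annotated genes that overlap App on the opposite strand, only Gm10791 is in the count table, with at most 40 counts in any library, where the lowest App count is 29016. Whether the counting used strand is not given in the sources used here.

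Aplp1 lies in a gene-dense stretch of chromosome 7 with 29 protein-coding genes within 200 kb, of which 20 were tested at week 24. Of these, Tyrobp, 17.4 kb from Aplp1 and encoding the microglial adaptor DAP12, rose by 1.16 ± 0.0701 on the log2 scale at week 24 (adjusted p = 5.88e-10). Kirrel2, a cell adhesion gene 2 kb from Aplp1 on the other side, fell by 0.40 ± 0.0926 (adjusted p = 0.0353), and was called in 7 of 20 fits that left out a library. Between them Aplp1 itself was at -0.062 ± 0.0511, and Nfkbid, 6.24 kb away, was at -0.021 ± 0.219. The gamma-secretase subunit gene Psenen, a listed partner that lies 116 kb from Aplp1, was at 0.025 ± 0.0498 at that age (adjusted p = 0.908). At week 24, 1 higher and 1 lower of these 20 were called and 1 of 5 tested near Aplp2, where 0.878% of all genes were. At week 3 the called neighbour was U2af1l4, a splicing factor gene (-0.27 ± 0.07, adjusted p = 0.0346), which was at -0.16 ± 0.111 without the deeper libraries. It was called in 9 of 20 fits that left out a library. At week 3 it was the 1 called of 20 neighbours of Aplp1 tested, beside 3.78% of all genes. Over the 3 weeks together Tyrobp rose by 0.40 ± 0.0473 (adjusted p = 1.47e-07), Kirrel2 fell by 0.33 ± 0.0807 (adjusted p = 0.00628) and U2af1l4 fell by 0.19 ± 0.0478 (adjusted p = 0.00677). These are 1 higher and 2 lower of 21 tested near Aplp1, beside 12% of all genes called. Without the deeper libraries Tyrobp was at 0.43 ± 0.0569 and was called (adjusted p = 6.36e-06), whereas Kirrel2 (-0.21 ± 0.0884, adjusted p = 0.266) and U2af1l4 (-0.16 ± 0.0591, adjusted p = 0.22) were not. Over weeks 8 and 24 Tyrobp alone was called, of 21 tested near Aplp1 (0.392% of all genes called). Beside Aplp2 on chromosome 9, St14, a membrane serine protease gene 17.7 kb away, rose by 0.99 ± 0.233 at week 24 (adjusted p = 0.0423, called in 6 of 20 fits that left out a library), and Prdm10, 68.7 kb away on the other side, was at -0.012 ± 0.0458. With age in WT the called neighbours were Cox6b1 near Aplp1 (-0.22 ± 0.061 from week 3 to 8, adjusted p = 0.019), Tyrobp again (0.28 ± 0.0937 from week 3 to 24, adjusted p = 0.0287), and Zbtb44 (0.27 ± 0.0745, adjusted p = 0.00925) and Adamts8 (-0.36 ± 0.128, adjusted p = 0.0423) near Aplp2 over the same interval. From week 3 to 8, 1 of 21 neighbours of Aplp1 tested was called, beside 7.14% of all genes. From week 3 to 24, 1 of 21 near Aplp1 was called, and 1 higher and 1 lower of 5 near Aplp2, beside 21.9%. Neither Aplp1 nor Aplp2 was called in those comparisons.

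**Figure D5:**
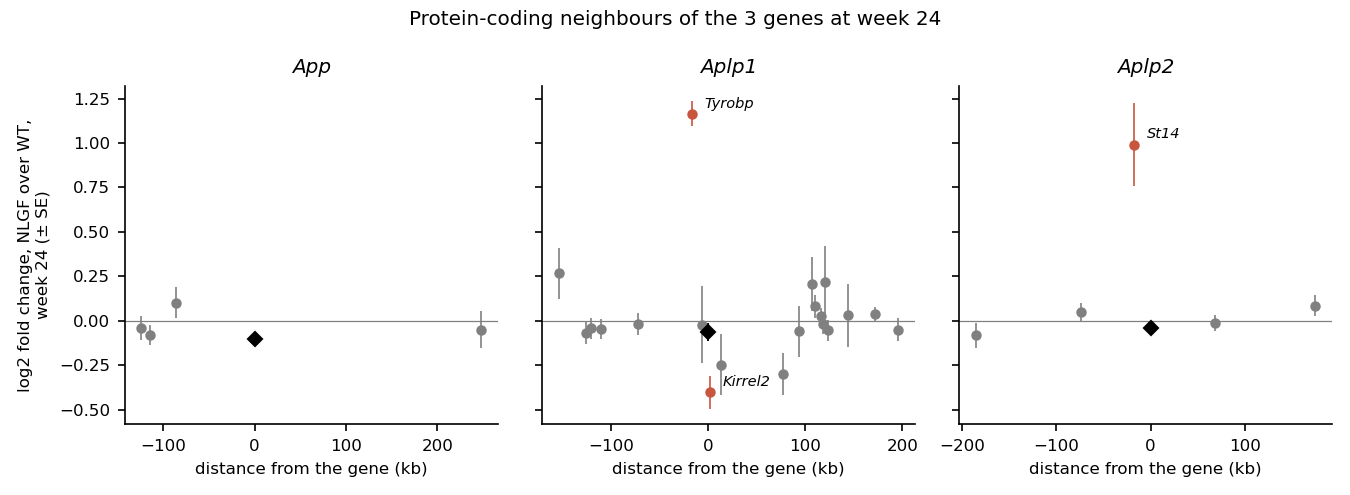
Log2 fold change of NLGF over WT at week 24 with its standard error for the protein-coding genes around App, Aplp1 and Aplp2, by distance from the family member in kb (negative values toward lower coordinates). Black diamonds are the family members, red points are called and grey points are not. Tyrobp (1.16), St14 (0.99) and Kirrel2 (-0.40) stand out beside diamonds that lie at -0.10, -0.062 and -0.039.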

How the data were processed

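Total RNA of the hippocampus was depleted of ribosomal RNA and sequenced, per the labels' protocols. The authors deposited raw counts per gene symbol. Per the submitters' processing notes, the tools were FastQC, STAR, edgeR and DESeq2 and the build mm10, without versions. For the read counter, annotation and strandedness nothing is stated in the sources used here. The authors' deposited table gives, per the file headers, a mean of normalized counts (a signal value), log2 fold changes and p-values.

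From the counts, edgeR 4.0.16 (R 4.3.3) fitted each comparison: filterByExpr (minimum count 10), TMM scaling, robust quasi-likelihood F-test, 2-sided, with p-values adjusted by Benjamini-Hochberg across every gene fitted and called under 0.05. Standard errors were derived from each fold change with its F statistic. Genotypes were compared within a week and ages within a genotype, with sex as a covariate. Alternatives were RLE scaling, DESeq2 1.42.0, limma-voom 3.58.1 with quality weights, other filters, a replicate block, single sexes, and leaving out libraries. A GC covariate, the fits over several weeks and the principal transcript length were added after the data were seen. The scripts were tested on simulated data. Correlations used 1e+05 permutations within groups.

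Named beside the 3 members were the called partners of smallest p (up to 4 a list, in the genotype comparisons and in WT between neighbouring ages), called or nearest neighbours, and the 5 genes most alike to each member. Members and lists were chosen with earlier results of these data known. A relation to 1 marker list and the value of 1 partner gene are not reported here.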

Additional observations from a re-analysis of the deposited data

Results flagged for a closer look

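In each of the 36 groups of 5 libraries formed by gene, genotype, week and sex, the highest and lowest values were checked for a wide gap to the rest, and 2 stood apart. Chance flags about 1 group in 20 by this rule. App stood at 1514.4 CPM in NLGF W8 female 1, where the other 4 libraries lay between 1630.7 and 1654.9 CPM, a gap of 0.828 of the group's range. It is the library whose age field gives 3 weeks. Without it the week 8 difference of App was -0.20 ± 0.0639, that of Aplp1 -0.084 ± 0.0849 and that of Aplp2 -0.15 ± 0.0597, against -0.21, -0.11 and -0.17 with it. Aplp1 stood at 1559 CPM in NLGF W3 female 2, where the others lay between 1088.4 and 1208.7 CPM, a gap of 0.744 of the range. That library is 1 of the 3 of its set that are not of the deeper kind. NLGF W3 female 3, also not of that kind, was at 1208.7 CPM. The GC index of NLGF W3 female 2 was 0.446, the highest of its group, whose median was -0.0038. Neither link was tested.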

How the results depend on the processing

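Of the values that the alternatives gave for the 3 genes, 432 kept their direction and their side of the threshold, 34 changed sign, 6 passed the threshold and 5 no longer did. No reversed value was called. At weeks 8 and 24 each gene was lower in NLGF under every alternative run, with no call. Of the values with a library left out, 1830 kept both, 83 changed sign and 7 lost a call.

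Without the deeper libraries the week 3 values were 0.00047 for App, 0.083 for Aplp1 and 0.019 for Aplp2. With those libraries alone against WT, App was at -0.14 and Aplp1 at -0.21, both called. limma-voom called App at week 3 (-0.12) and Aplp1 over the 3 weeks (-0.088). Over the 3 weeks, App (-0.11) and Aplp2 (-0.063) were not called without the deeper libraries, nor Aplp2 with no filter on low counts (-0.091). Over weeks 8 and 24 App was not called with no filter (-0.15) or with the replicate block (-0.16, adjusted p = 0.0736). The GC covariate brought the WT value of App from week 3 to 8 to 0.16, and without the deeper libraries Aplp1 in NLGF from week 3 to 24 was at -0.23, both called.

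The following values changed sign, none of them called. For the genotype effect of week 8 minus week 3, Aplp1 was at -0.0041 with RLE scaling and with DESeq2, -0.20 without the deeper libraries and -0.0098 without NLGF W3 male 2. For week 24 minus week 8 Aplp1 was at -0.0012 in limma-voom. For week 24 minus week 3 App was at 0.0021 with the 1 CPM filter and 0.028 in limma-voom, and without the deeper libraries Aplp1 was at -0.15 and Aplp2 at -0.061. In WT, Aplp1 from week 3 to 8 was at -3.77e-05 with the 1 CPM filter, -0.0051 with the replicate block and -0.032 in limma-voom, and from week 3 to 24 at 0.013 with the GC covariate. In NLGF without the deeper libraries, App was at -0.073 and Aplp1 at -0.16 from week 3 to 8, and App at -0.093 from week 3 to 24. Without NLGF W3 male 2 Aplp1 was at -0.0026 from week 3 to 8. With the GC covariate App was at 0.027 and Aplp1 at 0.014 from week 8 to 24, and Aplp1 at 0.069 and Aplp2 at 0.026 from week 3 to 24, where limma-voom put Aplp2 at 0.00073. For males minus females at week 3, App was at 0.0052 with the 1 CPM filter, 0.094 with the GC covariate and 0.11 without the deeper libraries, and Aplp2 at 0.13 without them. At week 8 App was at -0.048 in limma-voom and -0.015 with the GC covariate. At week 24 Aplp1 was at -0.0019 with the replicate block and -0.031 in limma-voom, and Aplp2 at 0.011 in limma-voom.

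With each library left out in turn, Aplp1 ran from -0.038 to 0.073 for the genotype effect of week 8 minus week 3, and from -0.023 to 0.088 for week 24 minus week 8. App ran from -0.030 to 0.0081 for week 24 minus week 3. From week 3 to 8 Aplp1 ran from -0.065 to 0.041 and Aplp2 from -0.0034 to 0.057 in WT, and Aplp1 from -0.022 to 0.047 in NLGF. App in NLGF ran from -0.0092 to 0.027 from week 3 to 24. For males minus females, App ran from -0.062 to 0.023, -0.053 to 0.10 and -0.012 to 0.045 at the 3 weeks, Aplp1 from -0.18 to 0.041 at week 8 and -0.037 to 0.048 at week 24, and Aplp2 from -0.11 to 0.013 at week 3 and -0.045 to 0.021 at week 24. App over weeks 8 and 24 ran from -0.18 to -0.14.

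Counts of called genes moved more. At week 3 they ran from 0 to 3671 over the alternatives and from 102 to 1923 with a library left out, at week 24 from 37 to 224, over the 3 weeks from 36 to 3907 and over weeks 8 and 24 from 60 to 142. For the differences between weeks they ran from 0 to 518, 47 to 85 and 15 to 1510, for age in WT from 965 to 1945 (week 3 to 8) and 29 to 111 (week 8 to 24), for age in NLGF from 1420 to 3118 and 287 to 792, and for males minus females at week 3 from 0 to 81. The log2 ratio of Aplp1 to App per kb was 1.67 with all exons, 1.29 with the longest transcript and 0.0051 with the principal one. That of Aplp2 to App was -0.67, -0.64 and -2.01. The causes were not tested.

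The replicate numbers were not taken to pair the libraries, since of 30 same-numbered pairs 14, not all, deviated together with r over 0.1 (range -0.21 to 0.54). Of the 30, 10 were closest to their own number. At week 24 these counts were 7 and 6 of 10 pairs, which is a hint from the data and not from the design. At week 3 the block left 165 genes called of 628, and with it no family member changed its call except App over weeks 8 and 24. The lowest App count in any library was 29016. At week 3 depth and genotype cannot be told apart.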
